A study of Mus musculus with 16 samples.

Results

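A set of 7 genes that store, import, export or sense iron was followed in mRNA from dopaminergic neurons of the mouse substantia nigra pars compacta (SNc): the ferritin chains Fth1 and Ftl1, the importers Tfrc and Slc11a2, the exporter Slc40a1, and the sensors Ireb2 and Aco1. They were chosen by name and matched to Ensembl gene identifiers, and they are 7 of the 25006 genes listed in the count tables. Of the 12390 genes with enough counts to be compared between genotypes, 6 were in this set, because Slc40a1 did not pass the filter on low counts.

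The libraries came from 8 control mice of genotype DAT-Cre +/- and from 8 mice of genotype DAT-Cre+/- MCU fl/fl, called MCU-KO, in which the floxed gene for the pore of the mitochondrial calcium uniporter is deleted in cells that express Cre from the dopamine transporter locus. All 16 mice were of age p45, carried 1 DAT-Cre allele, and had received an AAV9 vector 30 days earlier that gave a Flag-tagged ribosomal protein (RiboTag) in Cre-expressing cells of the SNc. Tagged ribosomes were pulled down from dissected tissue, so that the counts describe ribosome-bound polyadenylated mRNA and not protein or iron. According to the methods, the DAT-Cre +/- mice came from a cross of DAT-Cre and C57/BL6 mice and not from the floxed line, so that genotype and breeding line cannot be told apart. Each library was 1 mouse.

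Iron is needed for heme and iron-sulfur clusters, and dopaminergic neurons use it in tyrosine hydroxylase, the enzyme that limits the rate of dopamine synthesis. The substantia nigra is known for its high iron content, which rises with age and in Parkinson's disease. Cells take up transferrin-bound iron through the transferrin receptor Tfrc, move it out of endosomes through Slc11a2 (DMT1), store it in ferritin shells built of heavy (Fth1) and light (Ftl1) chains, and release it through ferroportin, the product of Slc40a1. When iron is scarce, the iron regulatory proteins Aco1 (IRP1) and Ireb2 (IRP2) bind hairpins called iron-responsive elements. Binding in a 5′ UTR blocks translation, whereas binding in the 3′ UTR of Tfrc protects the mRNA.

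These hairpins are shown because mRNAs read the cell's iron status through such sequences. A strict pattern found them in 4 of the 7 genes. Annotated transcripts (GENCODE M21, build GRCm38) were searched on the sense strand for a C followed by 5 bases, the letters CAGTG, 1 further base and 5 bases that pair with the first 5 (A with T, G with C or T). Each line gives 30 bases of the mRNA written as DNA, with the loop in capitals. Fth1 (chr19:9982732-9982761, plus strand), Ftl1 (chr7:45459778-45459807, minus strand) and Slc40a1 (chr1:45925464-45925493, minus strand) each held 1 hairpin, in the 5′ UTR.
Fth1: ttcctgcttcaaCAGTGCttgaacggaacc
Ftl1: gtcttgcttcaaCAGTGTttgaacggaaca
Slc40a1: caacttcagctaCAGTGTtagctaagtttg
Tfrc held 4, all in the 3′ UTR on the plus strand of chromosome 16.
Tfrc at chr16:32631219-32631248: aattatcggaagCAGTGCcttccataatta
Tfrc at chr16:32631598-32631627: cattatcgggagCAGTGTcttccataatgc
Tfrc at chr16:32631663-32631692: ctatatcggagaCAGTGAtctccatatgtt
Tfrc at chr16:32631710-32631739: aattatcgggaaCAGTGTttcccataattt

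The same letters occurred in a 5′ UTR of 31 of 22527 coding genes (0.138%) and in a 3′ UTR of 144 (0.639%). The search found no match in Slc11a2, Ireb2 or Aco1. This says only that these letters were not in their annotated transcripts, and a hairpin of another form would have been missed.

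Library totals ranged from 14129527 counts in MCU-KO mouse 8 to 22016362, and 3 counts, taken as the smallest detectable amount, stood for 0.136 to 0.212 CPM (counts relative to the library total). Dopaminergic neuron markers (11 genes) summed to 288178 to 371890 normalized counts in control mice and to 246346 to 413258 in MCU-KO mice, where a normalized count is the count over the size factor of its library. Oligodendrocyte markers (10 genes) summed to 60155 to 114344 and to 68835 to 136905, microglia markers (8 genes) to 1524 to 3943 and to 1451 to 5327, and endothelial markers (6 genes) to 145 to 775 and to 124 to 614. No marker that was tested was at an adjusted p under 0.05. Only 3 of the 6 endothelial, 1 of the 4 choroid plexus and ependyma and 3 of the 4 red blood cell markers were tested. All markers of the other lists were tested. Of the 4 choroid plexus and ependyma markers, Kl was at 0 in all control mice and Folr1 in all MCU-KO mice. Mcu, the targeted gene, had 120 to 828 normalized counts in control mice and 5.82 to 410 in MCU-KO mice, and the groups overlapped (log2 fold change -1.19, 95% confidence interval -2.41 to 0.04, edgeR adjusted p = 1.00). Counts of the whole gene include exons outside the floxed part, and whether this accounts for the overlap was not tested. Group membership of each library rests on the labels. The authors checked the deletion by quantitative RT-PCR of Mcu in RiboTag mRNA, and functionally by imaging calcium in the mitochondrial matrix. Whether the mice of those assays are among these is not given.

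The first question was whether loss of the uniporter changed the mRNA of these genes. None of the 6 genes tested passed the threshold between genotypes (edgeR quasi-likelihood test, adjusted p under 0.05 over 12390 genes). Across all genes, 22 did (0.178%), of which 11 were higher (0.0888%) and 11 lower (0.0888%) in MCU-KO mice. None of the 6 was at an unadjusted p under 0.05, against 547 of all genes (4.41%), and none of the 7 had groups that did not overlap, against 32 of the genes tested (0.258%). The DESeq2 Wald test, which called 90 of 15563 genes (0.578%), also called 0 of the 7. The estimates lay above 0 for 3 of the 6 genes and below 0 for the other 3, with a median log2 fold change of 0.00, as for all genes tested (0.00). In such pooled tissue, a change in the share of tagged cells and a change in mRNA per cell cannot be told apart. The intervals differed widely between genes. Fth1, Ftl1 and Ireb2 had 95% intervals between -1 and 1 on the log2 scale, as did 6417 of all genes, whereas those of Tfrc, Slc11a2 and Aco1 reached beyond it.

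**Figure D1:**
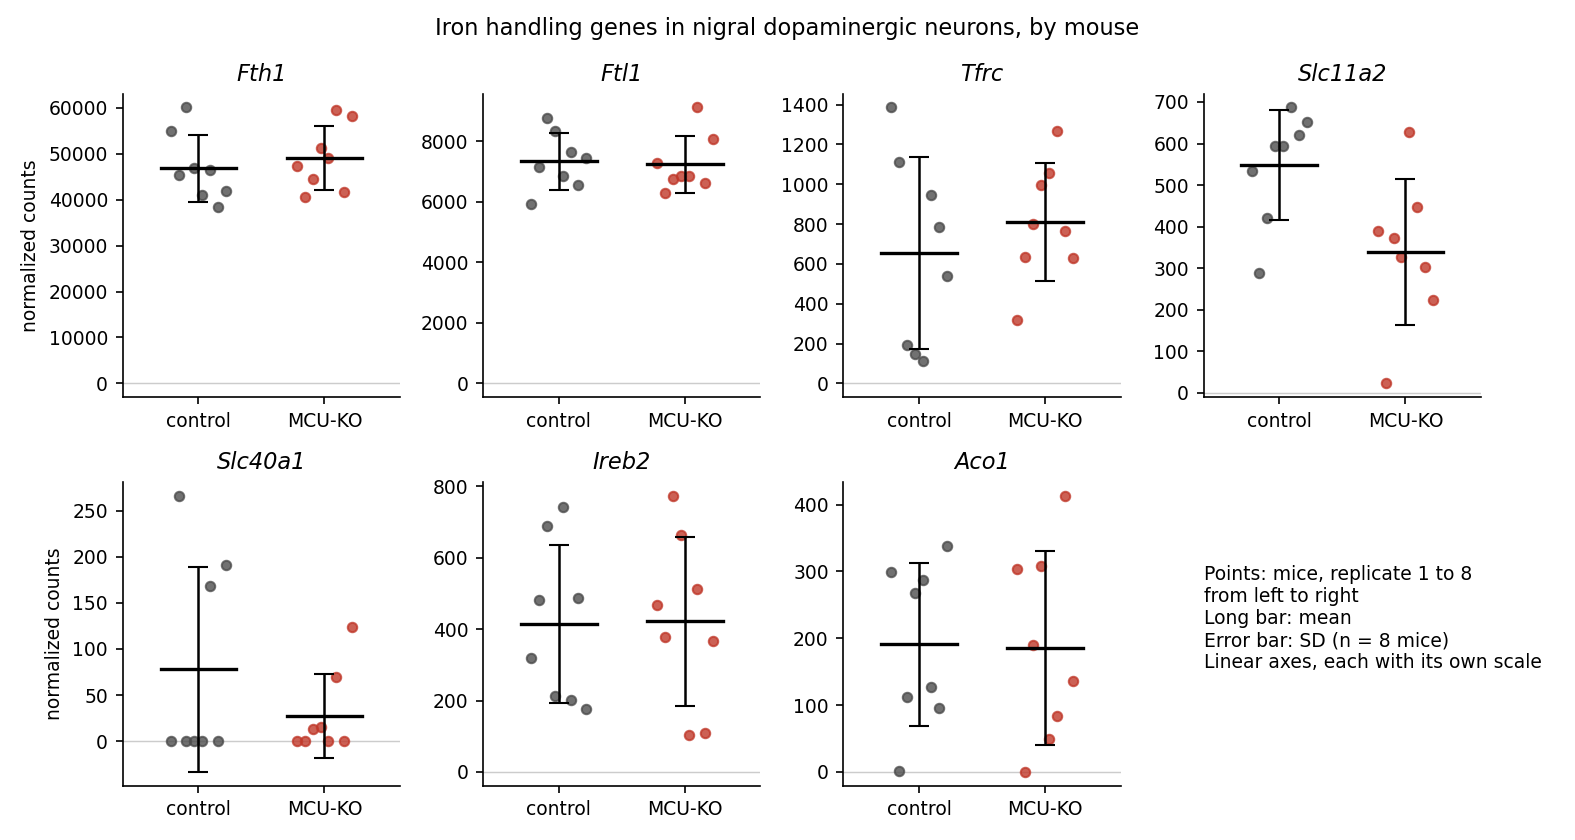
Normalized counts (vertical axes, linear, each with its own scale) of the 7 iron handling genes in each of 8 control and 8 MCU-KO mice; points are mice, long bars means and error bars SDs. The genotypes overlap for every gene, Tfrc has 3 control mice between 114 and 192, and Slc40a1 lies at 0 in 5 control and 4 MCU-KO mice.

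The storage genes had the smallest spread among mice. Fth1 (chr19:9980598-9985098, plus strand), the ferritin chain that oxidizes iron, had a lowest, median and highest value of 38298, 45955 and 60105 normalized counts in control mice. In MCU-KO mice these were 40586, 48213 and 59540. The ranges of the genotypes nearly coincided. The means were 46861 ± 7303 and 49045 ± 7042 (SD, n = 8 each), which gave a log2 fold change of 0.07 (SE 0.10, 95% interval -0.13 to 0.27, edgeR adjusted p = 1.00).

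Ftl1 (chr7:45457944-45459884, minus strand), the chain that helps to form the mineral core, had a lowest, median and highest value of 5928, 7309 and 8785 normalized counts in control mice and of 6293, 6866 and 9128 in MCU-KO mice. MCU-KO mouse 6 lay above every control mouse and the others lay within the control range. The means were 7342 ± 933 and 7239 ± 929.6 (SD, n = 8 each), and the log2 fold change was -0.02 (SE 0.10, 95% interval -0.22 to 0.18, edgeR adjusted p = 1.00). The intervals of these chains were the narrowest of the set.

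The 4 mice with the most Fth1 were among the 6 with the highest sums of markers of oligodendrocytes, a cell type known to be rich in ferritin. They were control mice 1 and 3 (54847 and 60105 normalized counts of Fth1) and MCU-KO mice 6 and 8 (59540 and 58278). In these mice the oligodendrocyte markers summed to between 100143 and 115987 normalized counts. The remaining mice with sums above that of MCU-KO mouse 8 were MCU-KO mouse 4 (sum 136905, Fth1 51188) and MCU-KO mouse 5 (sum 106335, Fth1 49024). Control mouse 3 and MCU-KO mice 6 and 8 also had the lowest sums of dopaminergic neuron markers (288178, 246346 and 294902), while control mouse 1 had 357939. Microglia markers summed to 2714 and 3943 in control mice 1 and 3 and to 5327 and 3228 in MCU-KO mice 6 and 8. The log2 fold change of Fth1 was 0.01 in place of 0.07 with the oligodendrocyte marker level as a covariate. It was 0.00 with that of microglia and 0.03 with that of dopaminergic neurons. The shift was thus not seen with oligodendrocyte markers alone, and each shift was smaller than the SE of the estimate (0.10). Whether part of the ferritin mRNA came from other cells carried along with the tagged ribosomes was not tested.

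A large part of Ftl1's sequence is shared with retrocopies. Of the stretches of 50 bases in its transcripts, 58.4% also occurred in transcripts of 17 other genes, so that its counts depend on how such reads were assigned. Of these copies, Ftl1-ps1 was listed with 3.08 to 23.6 normalized counts in control mice and 4.62 to 21.7 in MCU-KO mice, far below Ftl1. Fth1 shared 1.59% of its stretches, Slc11a2 4.27% and Ireb2 0.031%, and Tfrc, Slc40a1 and Aco1 shared none.

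The importers had the largest estimates of the 6 genes in the main comparison, which does not include the exporter. Tfrc (chr16:32608920-32632794, plus strand), the receptor that internalizes transferrin, had a lowest, median and highest value of 114, 663 and 1387 normalized counts in control mice. In MCU-KO mice these were 320, 782 and 1270. Control mice 3, 4 and 5 had 192, 147 and 114, and the remaining control mice had at least 539.5 (control mouse 8), so that the spread was wider in control mice (653 ± 482, SD, n = 8) than in MCU-KO mice (809 ± 296, SD, n = 8). The log2 fold change was 0.31 (SE 0.43, 95% interval -0.59 to 1.21, edgeR adjusted p = 1.00), and all MCU-KO mice lay within the control range. Endothelial cells also carry the receptor, and their markers summed to 378, 683 and 265 normalized counts in the 3 low control mice and to between 145 and 775 in the other control mice. Their part in the result was not tested.

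Slc11a2 (chr15:100387898-100425072, minus strand), the divalent metal transporter, had a lowest, median and highest value of 289, 594 and 687 normalized counts in control mice and of 22.4, 349 and 629 in MCU-KO mice. MCU-KO mice 2 and 8 lay below every control mouse, and MCU-KO mouse 5 lay among the highest control mice. The means were 549 ± 133 and 339 ± 175 (SD, n = 8 each), and the log2 fold change was -0.70 (SE 0.40, 95% interval -1.53 to 0.14, edgeR adjusted p = 1.00). Among the 6 genes tested this estimate was farthest from 0, and it did not pass the threshold.

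The edgeR p of Slc11a2 before adjustment was 0.0993, and on another scale the same gene gave a smaller unadjusted p. The mean of log2(normalized counts + 1) of Slc11a2 was lower by 1.03 in MCU-KO mice (log2 difference -1.03, exact permutation test over 12870 splits, two-sided, p = 0.0197), a test that was run on each of the 7 genes and is not adjusted for them. Without MCU-KO mouse 2, which had 22.4 normalized counts, the difference was -0.53 (exact permutation p = 0.0384), and over all 16 omissions of 1 mouse the exact permutation p lay between 0.00357 and 0.0488. The exact permutation p of the other 6 genes ranged from 0.211 for Tfrc (log2 difference 0.71) to 0.885 for Ireb2.

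Slc40a1 (chr1:45908068-45926523, minus strand), the only known cellular iron exporter, was the least covered of the 7 genes. It was at 0 counts in 5 of 8 control mice and in 4 of 8 MCU-KO mice. The remaining control mice had 168, 191 and 266 normalized counts, and the remaining MCU-KO mice had 13.8, 15.7, 69.8 and 124. A library thus had either 0 counts or at least 15, and means of 78.1 ± 111 and 27.9 ± 45.5 (SD, n = 8 each) describe no typical mouse. It was one of the genes left out of the main fit, and without the filter its log2 fold change was -1.49 (edgeR adjusted p = 0.945). A 0 in at least 1 mouse was frequent in these libraries and occurred in 22.3% of the genes tested (2767 of 12390).

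The sensors had control means above 43.8% (Ireb2) and 26.2% (Aco1) of the genes tested. Ireb2 (chr9:54863789-54912530, plus strand), the iron regulatory protein that is degraded when iron is plentiful, had a lowest, median and highest value of 178, 400.0 and 741 normalized counts in control mice and of 104, 423 and 774 in MCU-KO mice. The ranges overlapped over most of their length. The means were 414 ± 221 and 422 ± 238 (SD, n = 8 each), with a log2 fold change of 0.03 (SE 0.43, 95% interval -0.86 to 0.92, edgeR adjusted p = 1.00).

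Aco1 (chr4:40143081-40198338, plus strand) encodes the protein that is an aconitase when it holds an iron-sulfur cluster and an RNA binder when it does not. Its lowest, median and highest values were 0.881, 197 and 338 normalized counts in control mice and 0, 162 and 413 in MCU-KO mice. Control mouse 2 had 1 count and MCU-KO mouse 2 had 0, while every other mouse had at least 51 counts. The means were 191 ± 122 and 185 ± 145 (SD, n = 8 each), and the log2 fold change of -0.04 had the widest interval of the set (SE 0.84, 95% interval -1.79 to 1.71, edgeR adjusted p = 1.00). A fold change between 0.289 and 3.28 lay within it, so that the data say little about this gene.

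**Figure D2:**
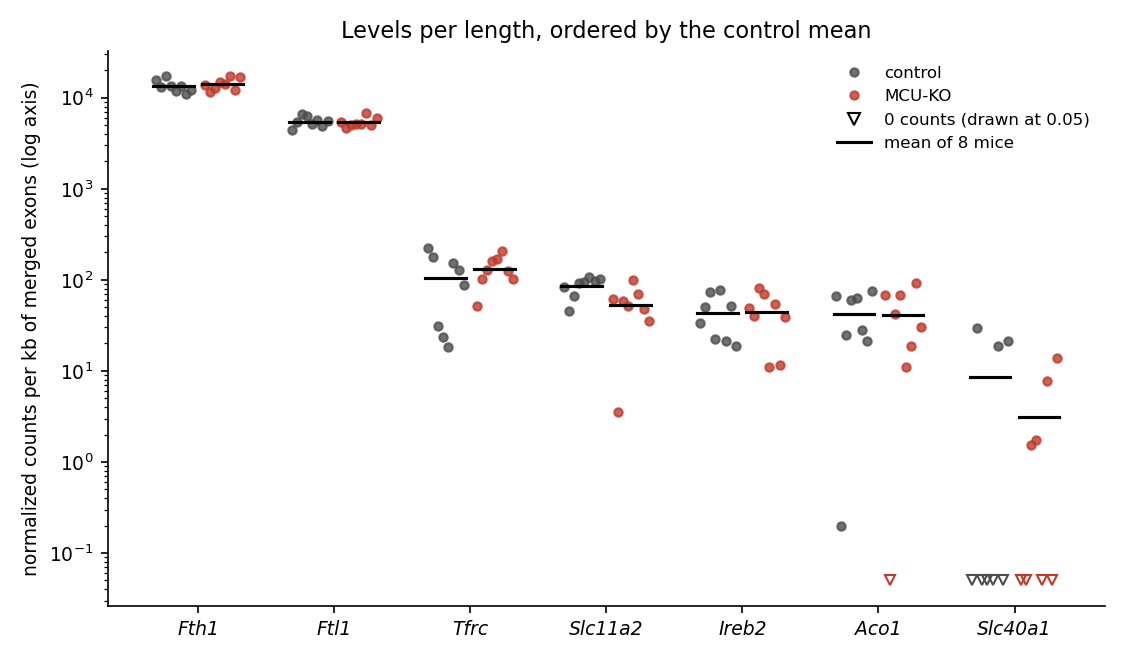
Normalized counts per kb of merged exons (vertical axis, log scale) for the 7 genes, ordered by the control mean, with 1 point per mouse, bars at the means of 8 mice and open triangles for mice with 0 counts, drawn at 0.05. The ferritin chains lie at 4424 per kb or more in every mouse, and the other 5 genes at 224 per kb or less.

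Levels of different genes were compared per kb of merged exons, within the control mice. That of Ftl1 depends on how reads shared with its retrocopies were assigned. Fth1 had 13508 ± 2105 normalized counts per kb (SD, n = 8) and Ftl1 5479 ± 696, far above Tfrc (106 ± 78.0), Slc11a2 (86.4 ± 20.9), Ireb2 (43.6 ± 23.4), Aco1 (42.4 ± 27.1) and Slc40a1 (8.68 ± 12.4). Fth1 exceeded Ftl1 in 8 of 8 mice (mean log2 ratio 1.30 ± 0.24, SD) and Ftl1 exceeded Tfrc in 8 of 8 (6.19 ± 1.53), each at the smallest value that an exact two-sided permutation of signs can reach with 8 mice (p = 0.00781, adjusted p = 0.0234 over the 6 neighboring pairs). Tfrc and Slc11a2 were not separated (mean log2 ratio -0.17 ± 1.54, exact permutation adjusted p = 0.766), nor were Ireb2 and Aco1 (0.65 ± 2.82, exact permutation adjusted p = 0.766). The ratio of Ireb2 to Aco1 was 6.93 in control mouse 2, which had 1 count of Aco1. Slc11a2 over Ireb2 (1.13 ± 1.08) and Aco1 over Slc40a1 (4.89 ± 5.61) missed the threshold, both with an exact permutation adjusted p of 0.0586. Slc40a1 was at 0 counts in 5 of the control mice, where the size of its ratio depends on the pseudocount of 1 count.

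Per kb of merged exons, the order of the means was the same in MCU-KO mice, at 14138 ± 2030, 5402 ± 694, 131 ± 47.8, 53.4 ± 27.6, 44.5 ± 25.1, 41.2 ± 32.2 and 3.10 ± 5.06 normalized counts per kb from Fth1 to Slc40a1. There Tfrc was separated from Slc11a2, with a mean log2 ratio of 1.57 ± 1.44 and Tfrc higher in 7 of 8 mice (exact permutation adjusted p = 0.0234). With the length of the longest coding transcript this call was lost (0.84, exact permutation adjusted p = 0.152). With that length and with the mean transcript length, the control mean was higher for Slc11a2 than for Tfrc (181 against 134, and 409 against 365 normalized counts per kb), while in MCU-KO mice Tfrc was higher with either length. The difference of this ratio between genotypes was not tested.

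The ratio of heavy to light ferritin chain mRNA, which bears on the makeup of the ferritin shell, varied little among mice. Its log2 value per kb was 1.30 ± 0.24 in control mice (range 1.11 to 1.84) and 1.38 ± 0.09 in MCU-KO mice (range 1.28 to 1.53). In control mice the mean was 2.04 with the length of the longest coding transcript and 2.42 with the mean transcript length, so that its size depends on the length chosen. It depends also on how reads shared between Ftl1 and its retrocopies were assigned. The control mouse at 1.84 was mouse 1, which had the lowest Ftl1. The ratio of Tfrc to Fth1, of uptake to storage, was -7.49 ± 1.44 and -6.84 ± 0.58, and the ratio of Ireb2 to Aco1 was 0.65 ± 2.82 and 0.86 ± 2.99 (log2 per kb, SD, n = 8 each).

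The spread among mice was smallest for the ferritin chains and largest for the exporter. The coefficient of variation in control and MCU-KO mice was 15.6% and 14.4% for Fth1 and 12.7% and 12.8% for Ftl1. It was 24.2% and 51.6% for Slc11a2, 73.8% and 36.6% for Tfrc, 53.5% and 56.4% for Ireb2, 63.9% and 78.0% for Aco1, and 142% and 163% for Slc40a1. The edgeR fit also estimated the spread beyond counting error, with a trend over genes of similar level. The values were 0.156 for Fth1 (trend 0.175), 0.153 for Ftl1 (0.196), 0.559 for Slc11a2 (0.557) and 0.593 for Ireb2 (0.578). Those of Tfrc (0.593, trend 0.424) and Aco1 (1.11, trend 0.962) lay above the trend. Much of the contrast between the genes thus went with their level.

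For each of the 6 genes tested, the gene with the most similar profile over the 16 mice was the one with the smallest root mean square difference of centered log2 CPM. It was Syt4 for Fth1 (0.11, against a median of 0.69 over all genes tested), Mras for Ftl1 (0.13, median 0.68), Hexim2 for Slc11a2 (0.48, median 1.32), Rtl5 for Ireb2 (0.60, median 1.12), Bicral for Tfrc (0.66, median 1.28) and Zbtb17 for Aco1 (1.12, median 2.36). The ferritin profiles were the flattest, and other flat profiles lie near them by this measure.

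**Figure D3:**
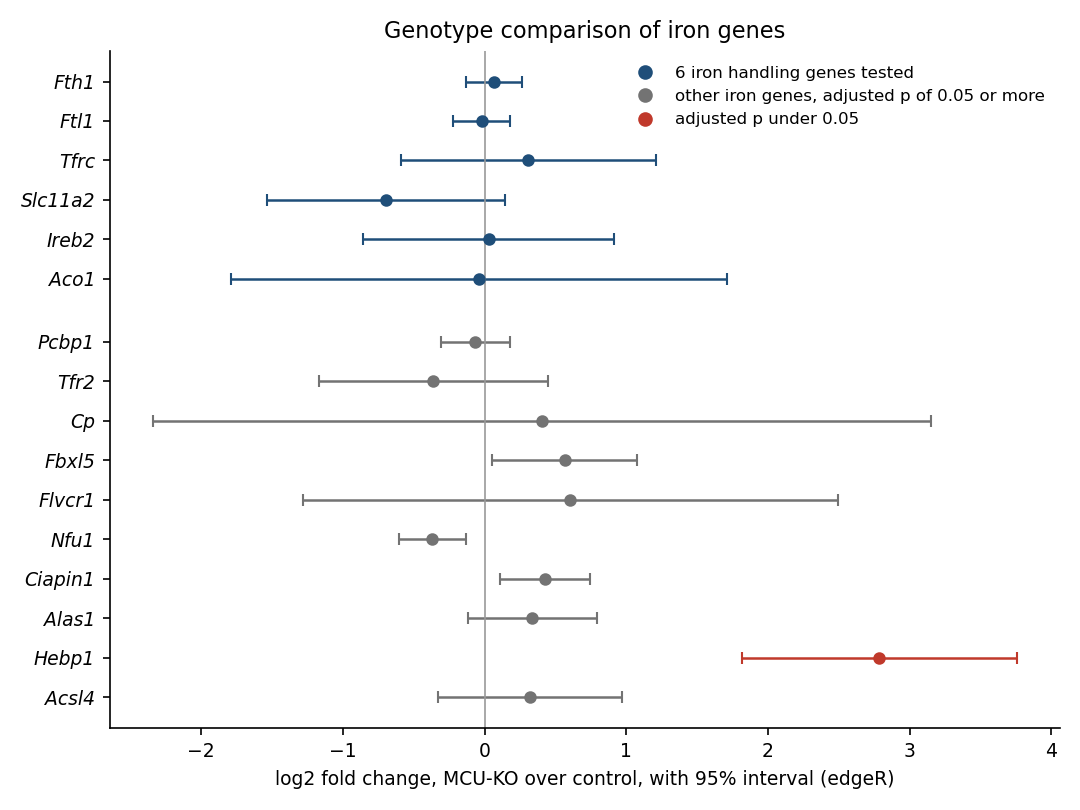
Log2 fold change of MCU-KO over control mice (horizontal axis, edgeR) with 95% intervals for the 6 iron handling genes tested and, below them, the gene with the smallest p in each of 10 lists of other iron genes. The interval of Hebp1 (1.82 to 3.76) is the only one in red, for an adjusted p under 0.05, and the 6 intervals at the top all include 0.

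The wider iron network was described with 85 further genes in 11 lists, of which 71 were tested. Of these, 1 was called, the heme binder Hebp1 (higher in MCU-KO mice), against 0.178% of all genes, and 7 were at an unadjusted p under 0.05, against 4.41% of all genes. The lists were chosen with earlier results of these data known, so that these shares describe the lists and are not a test of them. The estimates lay above 0 for 32 and below 0 for 39, with a median log2 fold change of -0.03.

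Genes that act on ferritin and the importers showed no call. Of 3 tested genes of ferritin turnover and iron chaperones the smallest p was that of Pcbp1, a chaperone that delivers iron to ferritin (log2 fold change -0.06, 95% interval -0.31 to 0.18). Of 5 tested genes of uptake and ferrireduction it was Tfr2, the second transferrin receptor (-0.36, interval -1.17 to 0.44). The iron carrier Trf, itself an oligodendrocyte marker, had a log2 fold change of 0.11 (interval -0.29 to 0.50), and 59.4% of its stretches of 50 bases occurred in other genes. Among partners of the exporter only the ferroxidase Cp was tested (0.40, interval -2.34 to 3.15), and it was at 0 counts in 3 control mice and 1 MCU-KO mouse.

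Of the 5 genes listed for degradation of the iron regulatory proteins, all were tested and none was called. Fbxl5, the ubiquitin ligase subunit that senses iron and targets Ireb2, had 850 ± 287 normalized counts in control mice and 1256 ± 453 in MCU-KO mice (SD, n = 8 each). The ranges overlapped (479 to 1401 and 627 to 2048), and the log2 fold change of 0.57 (SE 0.25, interval 0.05 to 1.08) had an edgeR adjusted p of 1.00.

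Inside mitochondria, none of the 6 tested genes of iron and heme transport and none of the 16 genes of iron-sulfur cluster assembly was called. The transport gene with the smallest p was Flvcr1, a heme exporter (0.61, interval -1.29 to 2.50), whose estimate was 1.61 with DESeq2, 1.37 with limma-voom and with the replicate block, and -0.0666 without MCU-KO mouse 2. Nfu1, which hands clusters to their recipient proteins, had 3802 ± 554 normalized counts in control mice and 2942 ± 411 in MCU-KO mice (SD, n = 8 each). Its ranges overlapped (2895 to 4387 and 2538 to 3577), and the log2 fold change was -0.37 (SE 0.11, interval -0.61 to -0.13, edgeR adjusted p = 0.649). Of the 16 assembly genes, 11 had estimates below 0 and 5 above, with a median of -0.07.

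In the cytosolic iron-sulfur assembly list 12 of 12 genes were tested, 0 were called, and the smallest p was that of Ciapin1, an electron donor of the pathway (0.43, interval 0.11 to 0.74, edgeR adjusted p = 0.849). In heme synthesis (8 tested, 0 called) it was Alas1, the rate-limiting enzyme outside red cells (0.34, interval -0.12 to 0.79). Of the 4 other mRNAs listed for a known iron-responsive element, 3 were tested and 0 called, with estimates between -0.15 and -0.13. In iron-dependent lipid peroxidation (4 tested, 0 called) the smallest p was that of Acsl4 (0.32, interval -0.33 to 0.97).

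**Figure D4:**
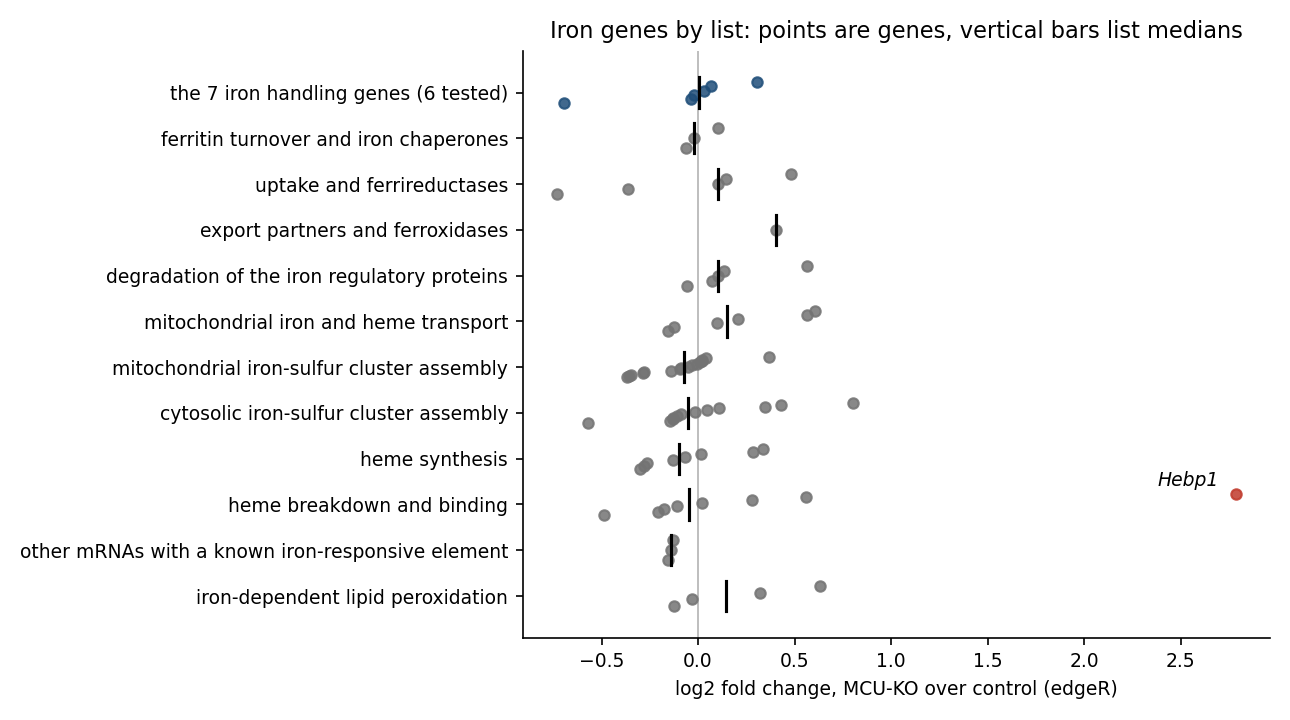
Log2 fold changes of MCU-KO over control mice (horizontal axis, edgeR) for the 6 iron handling genes tested and for the other tested iron genes by list, with points for genes and vertical bars for list medians. All genes other than Hebp1 (2.79) lie between -0.73 and 0.81, and the median of the 6 genes is 0.00.

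Hebp1, which binds heme in the cytosol (chr6:135137522-135198022, minus strand), was the 1 called gene of the 8 tested genes of heme breakdown and binding. Its lowest, median and highest values were 22.3, 46.7 and 90.5 normalized counts in control mice and 191, 333 and 642 in MCU-KO mice. Every MCU-KO mouse lay above every control mouse. The means were 53.2 ± 23.3 and 368 ± 138 (SD, n = 8 each), and the log2 fold change of 2.79 (SE 0.47, interval 1.82 to 3.76) had an edgeR adjusted p of 0.00448. The call was absent with limma-voom and quality weights (log2 fold change 2.65, adjusted p = 0.103) and with a replicate block (2.81, adjusted p = 0.135).

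Genes that overlap Hebp1 or lie near it are given here, and whether they affect its value was not tested. Fam234b overlaps Hebp1 on the opposite strand, with 46 of the 3711 exon bases of Hebp1 (1.24%) in common, and the strand setting of the counting is not given in the sources used here. Fam234b had a log2 fold change of -0.29 (interval -0.64 to 0.05, edgeR adjusted p = 1.00). Another called gene, Gucy2c, lay 1.5 Mb away on the same chromosome and was lower in MCU-KO mice (log2 fold change -0.85, edgeR adjusted p = 0.0266). The call of Gucy2c was lost with the replicate block (adjusted p = 0.295) and in 11 of the 16 fits without 1 mouse, those without control mouse 1, 2, 3, 5, 6 or 8 or MCU-KO mouse 1, 3, 5, 6 or 8 (edgeR adjusted p 0.00420 to 0.0835 over the 16). The breeding line and the genotype cannot be told apart in these differences.

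**Figure D5:**
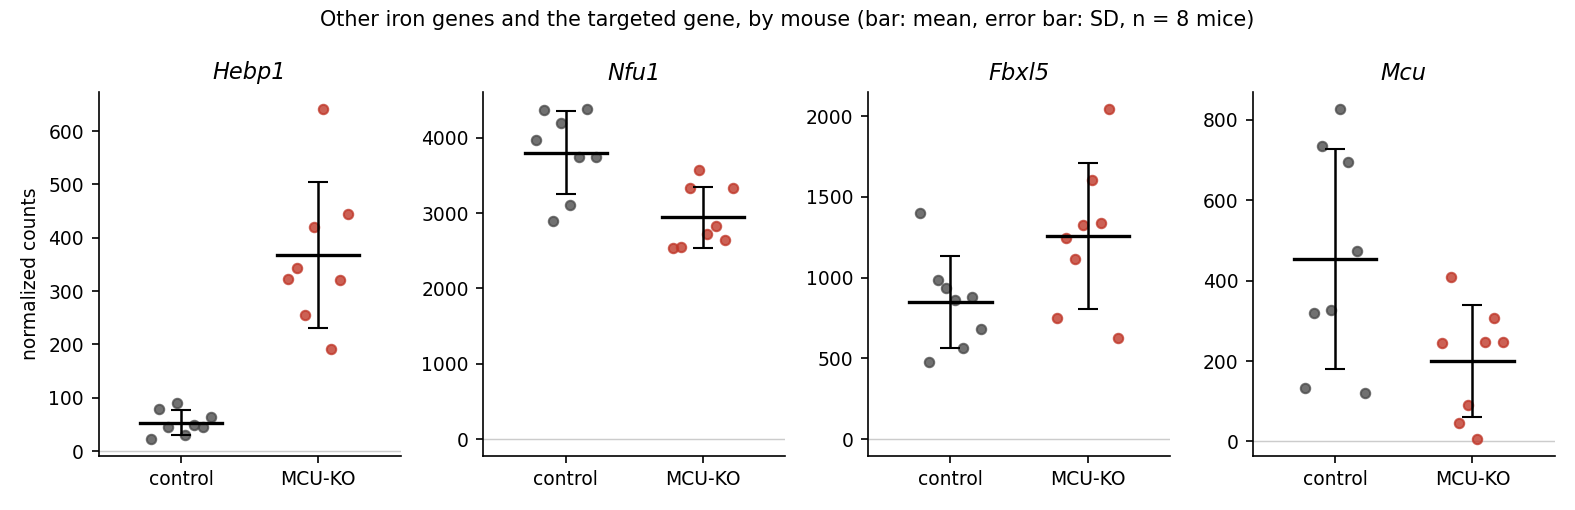
Normalized counts (vertical axes, linear, each with its own scale) of Hebp1, Nfu1, Fbxl5 and the targeted gene Mcu in each of 8 control and 8 MCU-KO mice; points are mice, long bars means and error bars SDs. Hebp1 is at most 90.5 in control mice and at least 191 in MCU-KO mice, whereas the genotypes overlap for Nfu1, Fbxl5 and Mcu.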

How the data were processed

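The authors trimmed reads (cutadapt in the methods, Trim Galore in the submitters' processing notes), used STAR for alignment to mm10 and htseq-count with Ensembl genes for counting, and deposited whole-number counts per gene and mouse without normalization. Versions, the annotation release and the strand setting are not given in the sources used here. Limits of detection cover counting error only, since the libraries are not stated to carry molecular identifiers.

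Symbols and coordinates came from GENCODE M21 (GRCm38, the same build as mm10), which matched 24991 of 25006 identifiers. Genotypes were compared with edgeR 4.0.16 in R 4.3.3 (filterByExpr, TMM, glmQLFit, glmQLFTest), with Benjamini-Hochberg adjustment over 12390 genes at 0.05. Normalized counts used size factors of DESeq2 1.42.0. Exact permutation tests used a pseudocount of 1 count and 12870 splits of the mice, or 256 sign patterns for the order of levels. Alternatives used DESeq2, limma 3.58.1, other normalizations, a stricter filter (10 counts or more in each mouse) or none, the mouse number as a block, marker covariates, pseudogene counts, another pseudocount (10), other lengths and the omission of each mouse. The length of the longest coding transcript, the omission of mice in the exact tests and all alternatives for Gucy2c were chosen after seeing the data.

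Members and lists were chosen with earlier results of these data known. Genes named were the 7 members, called genes (at most 5) and the gene with the smallest p in each list, the most similar profiles, pseudogenes of members, markers and Mcu. The gene of 1 list is not reported here. Of the genes outside this rule, Ciao1, Mms19 and Pgrmc1 are marked as such. Gucy2c and Fam234b were named for their position near Hebp1, and Ftmt, Hamp and Alox15 because no mouse had a count. Fits were tested on simulated data. Python 3.11.15, numpy 2.4.6, pandas 2.3.3 and matplotlib 3.10.9 were used for tables and plots.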

Additional observations from a re-analysis of the deposited data

Results flagged for a closer look

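Values of single mice that stood apart from the other 7 of their genotype by Dixon's ratio were found in 4 of 38 groups examined, where chance gives about 1 in 20 (1.9 groups). On the scale of log2(normalized counts + 1), Slc11a2 was 4.55 in MCU-KO mouse 2 and between 7.80 and 9.30 in the other MCU-KO mice. Aco1 was 0.911 in control mouse 2, with the other control mice between 6.59 and 8.40. Aco1 was 0 in MCU-KO mouse 2, with the other MCU-KO mice between 5.66 and 8.69. The library of MCU-KO mouse 8 had 14129527 counts, and the other MCU-KO libraries had 19897268 to 20582204.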

How the results depend on the processing

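No iron handling gene was called under any alternative run. Over all genes, 22 were called, 90 with DESeq2 and 14 with the replicate block, and 18 to 24 with 1 mouse left out. The 1 call among the other iron genes, Hebp1, fell to 0 with limma-voom and quality weights (log2 fold change 2.65) and with the replicate block (2.81), and was present in all 16 fits without 1 mouse (log2 fold change 2.63 to 2.94, adjusted p 0.00438 to 0.0249). What the replicate numbers stand for is not given in the labels. Over the genes tested, deviations of same-numbered mice correlated at -0.06 to 0.03, and 0 mice correlated best with their own number. An effect on single genes that same-numbered mice share was not tested. The block changed no other call among the iron genes named. The estimates of 5 genes that were not called changed sign with 1 mouse left out. Log2 fold changes ranged from -0.0732 to 0.0228 for Ftl1, from -0.15 to 0.20 for Ireb2, from -0.32 to 0.16 for Aco1, from -0.92 to 0.80 for Cp and from -0.0666 to 1.71 for Flvcr1. Ireb2 was -0.0805 with the microglia and -0.00981 with the dopaminergic marker covariate, and Aco1 was 0.0579 with the microglia covariate and 0.33 with limma-voom. Differences of mean log2 normalized counts ranged, without 1 mouse, from -0.0690 to 0.0186 for Ftl1, from -0.87 to 0.49 for Slc40a1, from -0.24 to 0.17 for Ireb2 and from -1.12 to 0.65 for Aco1. In the order per length, the mean log2 ratio of Slc11a2 over Ireb2 passed the threshold with the mean transcript length (1.92) and with the longest coding transcript (1.49), and in MCU-KO mice Aco1 over Slc40a1 passed it (4.86) and Tfrc over Slc11a2 turned to 1.57. With the longest coding transcript, both calls in MCU-KO mice were lost (3.68, adjusted p = 0.0938, and 0.84, adjusted p = 0.152, exact permutation). The causes were not tested. Slc40a1 and Aco1 had 0 or 1 count in some mice, and at least 90 counts in the shallowest library. In the mice with 0 or 1 count, the size of their log2 ratio depends on the pseudocount of 1 count.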

Other observations

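Of the 85 further iron genes, 7 were at an unadjusted p under 0.05, and 3 of these were outside the rule for named genes and were chosen after their values were seen. Ciao1, a scaffold of cytosolic iron-sulfur assembly, had 1933 ± 434 normalized counts in control mice and 1302 ± 494 in MCU-KO mice (SD, n = 8 each, log2 fold change -0.57, interval -1.003 to -0.137, edgeR adjusted p = 0.892). Mms19, which brings clusters to DNA repair enzymes, had 36.8 to 353 normalized counts in control mice and 363 to 630 in MCU-KO mice. It was, with Hebp1, 1 of 2 of these 85 genes whose groups did not overlap, against 0.258% of all genes tested, and its log2 fold change of 0.81 (interval 0.07 to 1.54) had an edgeR adjusted p of 1.00. Pgrmc1, a heme-binding membrane protein, had a log2 fold change of 0.28 (interval 0.01 to 0.55, edgeR adjusted p = 1.00). Ciao1 and Mms19, but not Pgrmc1, belong to the list of 12 cytosolic iron-sulfur assembly genes. The estimates of that list lay on both sides of 0, at 5 above and 7 below. Ftmt (mitochondrial ferritin), Hamp (the hormone hepcidin) and Alox15 had 0 counts in all 16 mice.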
